A study of Homo sapiens with 6 samples.

Results

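The D-type cyclins, the kinases CDK4 and CDK6 that they activate, the INK4 inhibitors of these kinases, the inhibitor CDKN1B and the substrate RB1 were examined as a group of 10 genes. The members were the rows of the deposited gene table named CCND1, CCND2, CCND3, CDK4, CDK6, CDKN2A, CDKN2B, CDKN2C, CDKN1B and RB1, and they are 10 of 62754 genes in that table. The study sequenced RNA of HK-2, an established line of human kidney proximal tubule cells, to ask how the acetyltransferase NAT10 acts on tubular cells injured by Cisplatin, a platinum drug that damages DNA. Every library came from Cisplatin-treated cells, which were transfected with a negative control siRNA (CP+siNC, n = 3) or with an siRNA against NAT10 (CP+siNAT10, n = 3). No library of cells without Cisplatin is part of the comparison, so a value in CP+siNC is a level under the drug and not a response to it. The labels give neither the dose and time of Cisplatin nor the siRNA sequence. Between 19321665 and 25192736 reads were counted on genes per library.

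Progression from G1 into S phase is gated by the retinoblastoma protein, which holds E2F transcription factors inactive until it is phosphorylated. D-type cyclins bind CDK4 and CDK6 to begin that phosphorylation, INK4 proteins bind these kinases and keep the cyclins away, and p27, the product of CDKN1B, acts mainly on the cyclin E and CDK2 complexes further on. In the kidney tubule, which divides little when uninjured, cyclin D1 and the INK4 protein p16 are known for their part in repair and in senescence. HK-2 was immortalised with the E6 and E7 genes of a papillomavirus, and E7 binds the retinoblastoma protein, which limits the line as a model of this pathway.

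The labelled cell type was compared with its markers. Of 13 markers of tubule epithelium, KRT8 was the most abundant, at 1455 ± 21.1 CPM (read counts scaled to the library size; mean ± SD, n = 3) in CP+siNC and 1450 ± 18.7 CPM in CP+siNAT10. KRT18, KRT19, PAX8 and GGT1 were also present, whereas 5 of the 13, the apical receptors LRP2 and CUBN, the brush border enzymes ANPEP and ALPL and the phosphate transporter SLC34A1, were without 10 counts in 3 libraries, so the RNA of these brush border genes was near 0. Among the markers that were present, KRT18 was at 346 and 269 CPM and PAX8 at 31.4 and 47.2 CPM in the means of CP+siNC and CP+siNAT10. In the same means EPCAM was at 15.5 and 19.3 CPM. The water channel AQP1, at 1.03 and 0.694 CPM, and PAX2, at 0.638 and 0.826 CPM, rested on few counts. The summed level of the 3 leukocyte markers was 208, 197 and 216 CPM in the CP+siNC libraries and 288, 265 and 268 CPM in the CP+siNAT10 libraries. Nearly all of it was CD68, a lysosomal membrane protein, while PTPRC was at 0.418 and 0.824 CPM in the group means and LYZ was low. For PTPRC the log2 fold change was 0.96 (edgeR adjusted p = 0.0411, with a range of 0.0115 to 0.404 over the alternatives). Its call was lost with DESeq2, at a log2 fold change of 0.97 (DESeq2 adjusted p = 0.139), without any single CP+siNC library (0.96, 1.04 and 0.86 without replicates 1, 2 and 3) and without CP+siNAT10 replicate 2 (0.46). The summed level of the 4 fibroblast markers, almost entirely COL1A1, was 10.8, 11.5 and 10.3 CPM in CP+siNC and 13.1, 15.6 and 12.9 CPM in CP+siNAT10, with COL1A2, DCN and PDGFRB low. The 3 endothelial markers summed to 0.258 CPM in CP+siNC and 0.274 CPM in CP+siNAT10. The part of these marker changes in the results was not tested.

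NAT10, the targeted gene, was measured at 75.8, 71.4 and 73.2 CPM in the CP+siNC libraries and at 41.3, 40.5 and 42.4 CPM in the CP+siNAT10 libraries. The groups did not overlap, and the knocked-down libraries were the lower ones, as their labels say. The CP+siNAT10 mean was 56.4% of the CP+siNC mean, a log2 fold change of -0.82 (SE 0.0426; edgeR quasi-likelihood test, Benjamini-Hochberg adjusted p = 2.79e-15).

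Among the 10 members, all had at least 10 counts in 3 libraries and were tested. The D-type cyclins fell together, CCND1 the most, while CDK4 and CDKN1B rose slightly and the INK4 members did not pass the test. In all, 4 members were lower in CP+siNAT10 at an adjusted p under 0.05, against 22.3% of all 19874 tested genes, and 2 were higher, against 21.8%. The lower members were CCND1, CCND2, CCND3 and RB1, and the higher members were CDK4 and CDKN1B. Past a 2-fold change as well were 2 members, CCND1 and CCND2, both lower, while 1.38% of tested genes were lower by that rule. Without CP+siNAT10 replicate 2, CCND2 was at -0.95 in log2 fold change, inside that limit, which left CCND1 alone past it. The libraries of the groups did not overlap for 5 lower members, where 25.7% of tested genes were lower without overlap, and for 2 higher members, where 25.7% were higher without overlap. The median log2 fold change of the members was -0.11, and that of all tested genes was 0.0070. In bulk RNA, fewer cells expressing a gene and less RNA of it per cell cannot be told apart.

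**Figure D1:**
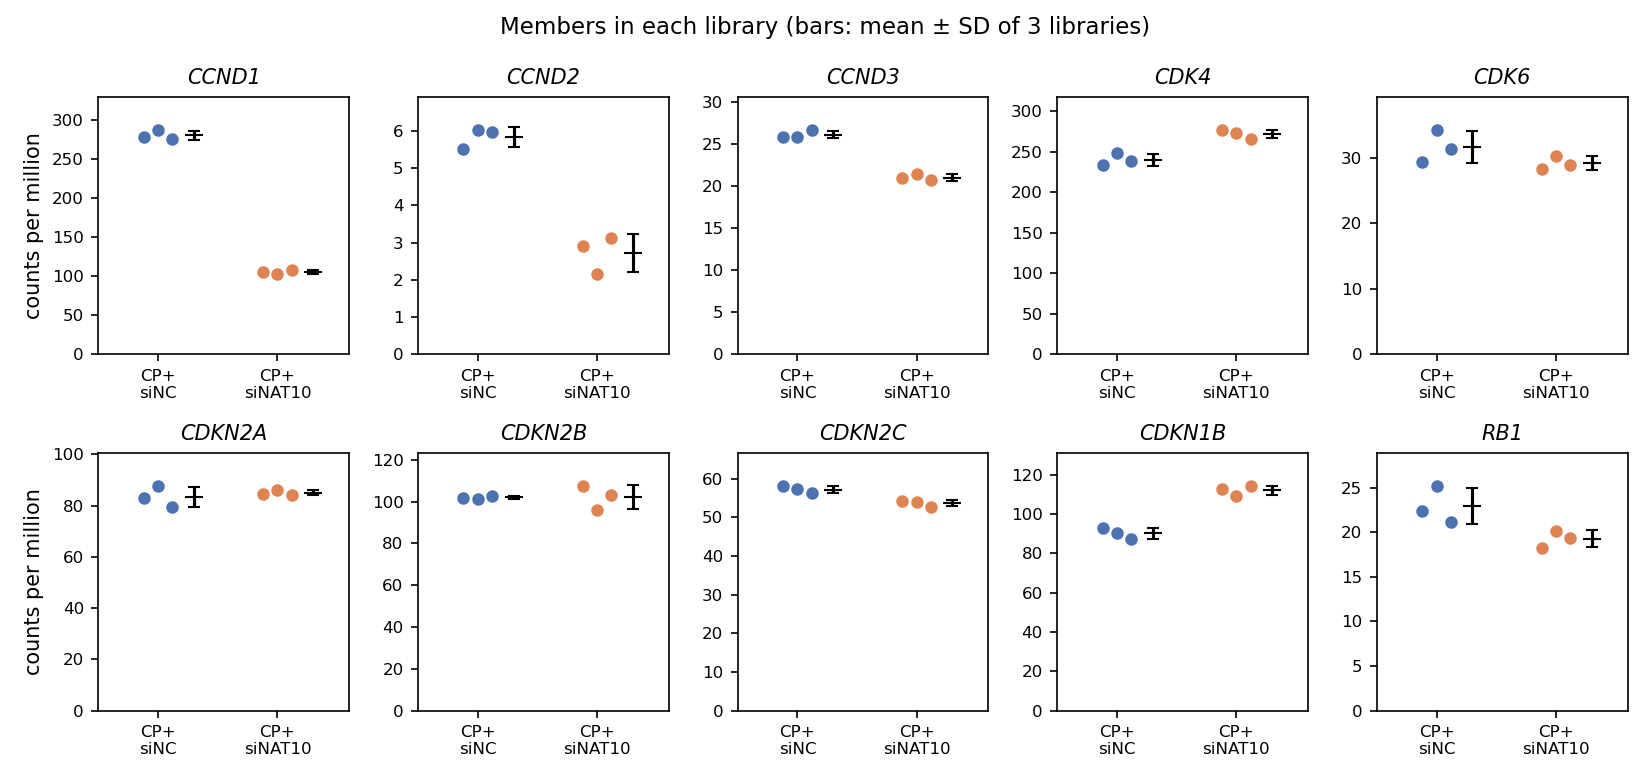
Level in CPM of each member in each of the 6 libraries (points) with the mean and SD of 3 libraries (bars), on axes that start at 0. CCND1 lies between 275 and 287 CPM in CP+siNC and between 102 and 107 CPM in CP+siNAT10, whereas the CDKN2B means are 102 CPM in both groups.

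**Figure D2:**
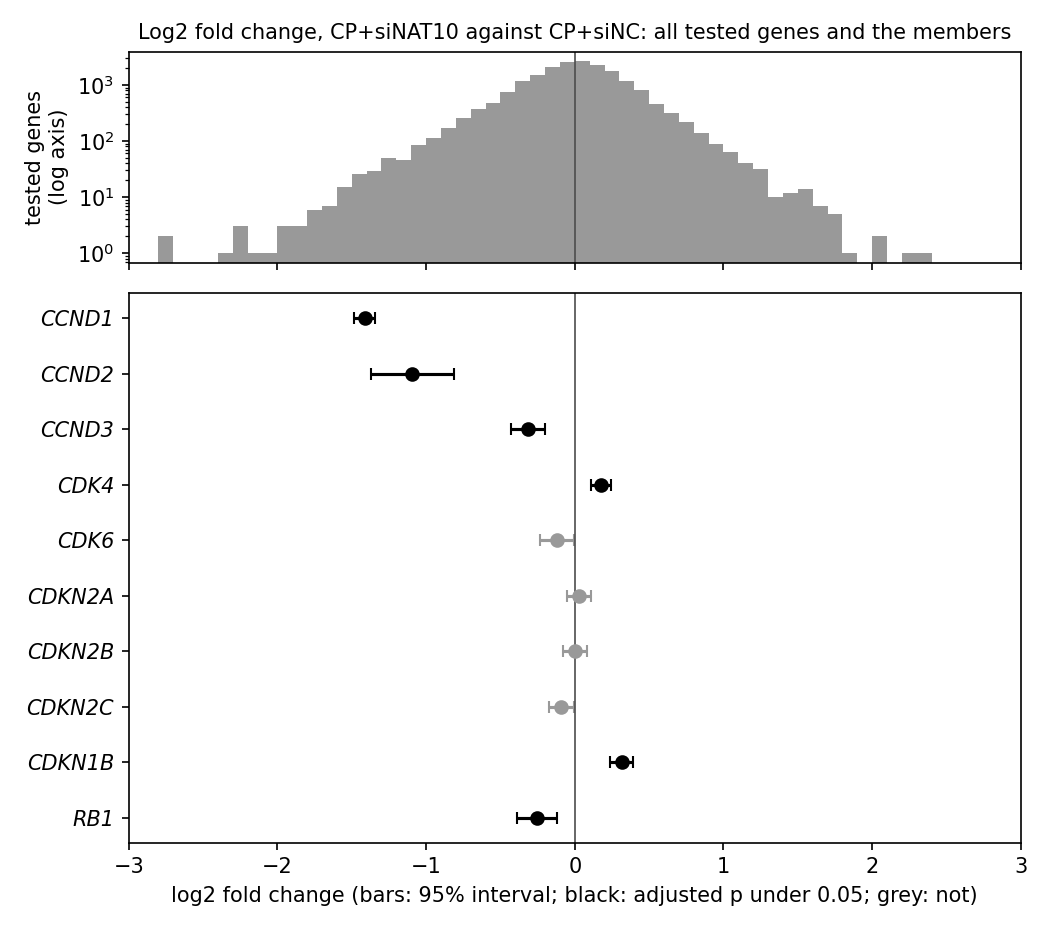
Log2 fold changes of the members with 95% intervals (lower panel) under the distribution of all 19874 tested genes on a log count axis (upper panel). CCND1 at -1.41 and CCND2 at -1.09 lie in the lower tail, and the other members lie between -0.31 and 0.31.

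CCND1 encodes cyclin D1, the D-type cyclin with the highest RNA level here, and lies at chr11:69641156-69654474 on the plus strand of GRCh38. It was measured at 278, 287 and 275 CPM in the CP+siNC libraries and at 106, 102 and 107 CPM in the CP+siNAT10 libraries. The groups were far apart, with a spread inside each that was small beside the gap. The CP+siNAT10 mean was 37.5% of the CP+siNC mean, a log2 fold change of -1.41 (SE 0.0345; edgeR quasi-likelihood test, Benjamini-Hochberg adjusted p = 1.47e-22). By p-value it ranked 4 among the 19874 genes tested. The gene LTO1, which overlaps the 3′ end of CCND1 on the opposite strand, was lower too (log2 fold change -0.38; edgeR adjusted p = 9.32e-08), at 49.1, 46.0 and 47.5 CPM in CP+siNC and 37.1, 37.0 and 35.2 CPM in CP+siNAT10. The library kit keeps the strand, but whether counting used it is not given in the sources used here, so reads of the overlap may be shared.

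Cyclin D2, encoded by CCND2 at chr12:4269771-4305350 on the plus strand, was the least abundant member. It was measured at 5.52, 6.03 and 5.97 CPM in the CP+siNC libraries and at 2.90, 2.15 and 3.12 CPM in the CP+siNAT10 libraries. Its values did not overlap, although each rested on only 47 to 129 counts. The log2 fold change was -1.09 (95% interval -1.37 to -0.81; edgeR quasi-likelihood test, adjusted p = 1.27e-07). A longer unnamed gene, ENSG00000285901, overlaps CCND2 on the same strand at 32.6 to 35.7 CPM in CP+siNC and 30.2 to 32.1 CPM in CP+siNAT10, so the level of CCND2 is uncertain.

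The remaining D-type cyclin, CCND3, was measured at 25.9, 25.9 and 26.7 CPM in the CP+siNC libraries and at 20.9, 21.5 and 20.7 CPM in the CP+siNAT10 libraries. Each CP+siNAT10 library was below each CP+siNC library. Its log2 fold change was -0.31 (95% interval -0.43 to -0.20; edgeR quasi-likelihood test, adjusted p = 2.63e-05), smaller in size than those of CCND1 and CCND2.

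CDK4, the more abundant of the kinases per gene length, was measured at 234, 249 and 238 CPM in the CP+siNC libraries and at 277, 273 and 267 CPM in the CP+siNAT10 libraries. All CP+siNAT10 libraries were above all CP+siNC libraries, opposite to the cyclins. The difference was small, with a log2 fold change of 0.18 (95% interval 0.11 to 0.25; edgeR quasi-likelihood test, adjusted p = 7.02e-05). CDK6, its close relative, was measured at 29.4, 34.2 and 31.4 CPM in CP+siNC and at 28.3, 30.3 and 28.9 CPM in CP+siNAT10. The groups overlapped, with CP+siNC replicate 1 inside the range of CP+siNAT10. CDK6 had a log2 fold change of -0.12 (95% interval -0.23 to -0.0065; edgeR quasi-likelihood test, adjusted p = 0.0809), and without CP+siNC replicate 1 it was -0.17 with an adjusted p of 0.0241. Over all alternatives for CDK6, the adjusted p in edgeR and DESeq2 lay between 0.0241 and 0.423.

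The members that rose, CDK4 and CDKN1B, are shown by the 250 bases before an annotated start (RefSeq, GRCh38.p14). The windows are chr12:57752311-57752560 on the minus strand and chr12:12717118-12717367 on the plus strand. Both lie inside the counted genes, which span chr12:57747727-57756013 for CDK4 and chr12:12685498-12721468 for CDKN1B. The sequence before the first base of these genes was therefore not searched. Capitals mark the letters searched on both strands, which were CACGTG of the E-box, the letters CCAAT of the box with that name, the letters GGGCGG of the GC box, the letters TGACGTCA of the cyclic AMP response element and the E2F forms TTTCCCGC or TTTCGCGC or TTTGCCGC or TTTGGCGC.
CDK4: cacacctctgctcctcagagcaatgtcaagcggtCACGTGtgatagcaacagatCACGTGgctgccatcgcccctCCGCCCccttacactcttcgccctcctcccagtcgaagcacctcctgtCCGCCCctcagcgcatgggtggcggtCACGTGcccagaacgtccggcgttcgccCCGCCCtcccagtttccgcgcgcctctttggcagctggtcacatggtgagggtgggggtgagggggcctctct
CDKN1B: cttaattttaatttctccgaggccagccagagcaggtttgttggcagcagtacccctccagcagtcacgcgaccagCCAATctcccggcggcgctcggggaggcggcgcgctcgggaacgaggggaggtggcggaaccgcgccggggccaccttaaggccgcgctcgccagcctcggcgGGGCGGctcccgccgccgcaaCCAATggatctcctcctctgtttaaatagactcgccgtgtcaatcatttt
The CDK4 window held CACGTG at 3 places and GGGCGG at 3 places, and the CDKN1B window held CCAAT at 2 places and GGGCGG at 1 place. The same letters were also in windows of members that did not rise. CACGTG was in 2 windows of CDKN2C, at 1 place each, and CCAAT was in 2 windows of CCND3 and 1 window of CDKN2C. GGGCGG was at 2 and 5 places in windows of CCND3, at 5 places and 1 place in windows of CDKN2C, at 3 places in a window of CDK6 and at 2 places in that of CDKN2B. The only RB1 window, at chr13:48476200-48476449, held none of the letters searched. It too lies inside the gene, which spans chr13:48303744-48599436 on the plus strand, so the sequence before the first base of RB1 was not searched. No member window held TGACGTCA or the listed E2F letters. Among all 35116 promoter windows of the same length, 6.34% held CACGTG, 32% held CCAAT, 42.6% held GGGCGG, 1.65% held TGACGTCA and 2.79% held a listed E2F form. Matching by symbol found 14 windows of 8 members in that table, and CCND1 and CCND2 had no entry. A match describes letters in a window and no binding.

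The INK4 inhibitors bind CDK4 and CDK6 directly. CDKN2A, which encodes p16 and, from another start and reading frame, the p53 regulator ARF, was measured at 83.2, 87.5 and 79.4 CPM in CP+siNC and at 84.6, 86.1 and 84.3 CPM in CP+siNAT10. The CP+siNAT10 values lay inside the CP+siNC range. CDKN2A had a log2 fold change of 0.027 (95% interval -0.054 to 0.11; edgeR quasi-likelihood test, adjusted p = 0.615), so a change of more than 0.11 in either direction lay outside the interval. Counts per gene add the transcripts of both starts. Their upstream windows are shown because a change of p16 and an opposite change of ARF could not be seen in such counts. The start of p16 is at the window chr9:21974858-21975107 and that of ARF at the window chr9:21995325-21995574, both on the minus strand, with capitals as above.
CDKN2A, p16 start: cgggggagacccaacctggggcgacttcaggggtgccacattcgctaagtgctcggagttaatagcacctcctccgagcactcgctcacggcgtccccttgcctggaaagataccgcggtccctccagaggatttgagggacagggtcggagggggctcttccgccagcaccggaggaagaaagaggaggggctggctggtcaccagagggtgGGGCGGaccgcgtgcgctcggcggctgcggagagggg
CDKN2A, ARF start: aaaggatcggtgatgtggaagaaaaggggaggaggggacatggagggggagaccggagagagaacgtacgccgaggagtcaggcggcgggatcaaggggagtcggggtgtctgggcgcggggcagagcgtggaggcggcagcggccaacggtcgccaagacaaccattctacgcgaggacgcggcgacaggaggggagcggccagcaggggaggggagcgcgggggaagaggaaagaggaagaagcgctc
The p16 window held GGGCGG at 1 place, and the ARF window held none of the letters searched.

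CDKN2B, the neighbour of CDKN2A and the gene of p15, was measured at 102, 101 and 103 CPM in CP+siNC and at 107, 95.9 and 103 CPM in CP+siNAT10. The CP+siNAT10 libraries surrounded the CP+siNC libraries. The log2 fold change of CDKN2B was 0.0015 (95% interval -0.079 to 0.082; edgeR quasi-likelihood test, adjusted p = 0.981), and its sign turned with the scaling. The antisense RNA of the locus, CDKN2B-AS1, overlaps both genes and was measured at 18.1 to 21.1 CPM in CP+siNC and 18.2 to 19.2 CPM in CP+siNAT10. CDKN2C, the gene of p18, was measured at 58.0, 57.3 and 56.2 CPM in CP+siNC and at 54.3, 54.0 and 52.8 CPM in CP+siNAT10. Its groups did not overlap, but the gap was narrow. For CDKN2C, the log2 fold change was -0.091 (95% interval -0.18 to -0.0067; edgeR quasi-likelihood test, adjusted p = 0.0746). Where genes needed 50 counts in 3 libraries, the adjusted p of CDKN2C in edgeR was 0.049, and over its alternatives in edgeR and DESeq2 it lay between 0.049 and 0.315.

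CDKN1B, the gene of the CIP/KIP inhibitor p27, was measured at 92.8, 90.5 and 87.2 CPM in the CP+siNC libraries and at 113, 109 and 114 CPM in the CP+siNAT10 libraries. The CP+siNAT10 libraries were the 3 highest. This was a log2 fold change of 0.31 (95% interval 0.24 to 0.39; edgeR quasi-likelihood test, adjusted p = 4.86e-08). RB1, which encodes the retinoblastoma protein, was measured at 22.4, 25.1 and 21.2 CPM in CP+siNC and at 18.2, 20.1 and 19.4 CPM in CP+siNAT10. The lowest CP+siNC library stood just above the highest CP+siNAT10 library. For RB1, the log2 fold change was -0.25 (95% interval -0.39 to -0.12; edgeR quasi-likelihood test, adjusted p = 0.00229).

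Levels of different genes were compared as RPKM, which is CPM divided by the gene length in kilobases. In CP+siNC the order of the mean RPKM was CDK4 (77.7), CCND1 (58.8), CDKN2B (25.5), CDKN2A (21.5), CDKN2C (18.9), CDKN1B (9.74), CCND3 (4.54), RB1 (3.56), CDK6 (2.59) and CCND2 (0.731), and no neighbours in this order overlapped between libraries. In CP+siNAT10 the RPKM of CCND1 was 22.1, next below CDKN2B at 25.5 and level with CDKN2A at 21.9. CCND1 and CDKN2A were the neighbours whose RPKM values overlapped in CP+siNAT10, and the remaining members kept their order in both groups. The gene lengths join all annotated exons, so RPKM is too low for a gene whose expressed transcripts are shorter.

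**Figure D3:**
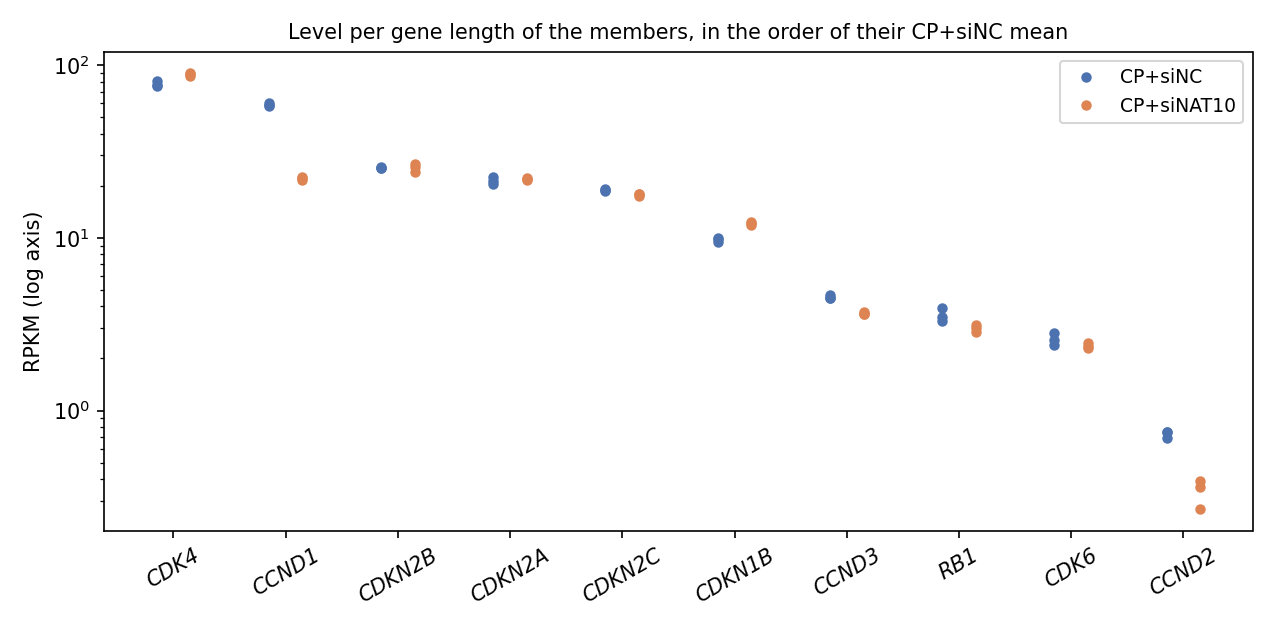
Level per gene length (RPKM, log axis) of each member in each of the 6 libraries, ordered by the CP+siNC mean. CCND1 moves from 58.8 RPKM, between CDK4 and CDKN2B, to 22.1 RPKM, beside CDKN2A.

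The RPKM of the D-type cyclins summed to 63.6, 65.5 and 63.1 in the CP+siNC libraries and to 26.2, 25.5 and 26.5 in the CP+siNAT10 libraries. Most of that sum was CCND1 in every library. Its share was 91.8% ± 0.262 (SD, n = 3) in CP+siNC and 84.7% ± 0.323 (SD, n = 3) in CP+siNAT10. The groups did not overlap, and the two-sided exact permutation test gave p = 0.1, the smallest value that 3 against 3 libraries allow. The RPKM sum of the 3 INK4 members divided by that of CDK4 and CDK6 was 0.846, 0.803 and 0.814 in the CP+siNC libraries and 0.725, 0.706 and 0.734 in the CP+siNAT10 libraries. This ratio was lower in every CP+siNAT10 library, also with p = 0.1 by the exact permutation test. Both are ratios of RNA and say nothing of protein amounts. In the INK4 ratio, the mean RPKM of CDK4 was 77.7 in CP+siNC and 88.0 in CP+siNAT10, and that of CDK6 2.59 and 2.38. Those of the INK4 members were 21.5 and 21.9 for CDKN2A, 25.5 and 25.5 for CDKN2B, and 18.9 and 17.8 for CDKN2C. None of these 3 passed the edgeR test at the main settings, so the lower ratio is not by itself less INK4 RNA. The INK4 ratio leaves out CDKN2D, an INK4 gene that is not a member. Its mean RPKM was 19.8 in CP+siNC and 10.1 in CP+siNAT10, so the ratio does not describe all INK4 genes.

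Genes next to the members in the pathway were described as 7 lists, by counts at an adjusted p under 0.05 in the edgeR quasi-likelihood test. For comparison, 4440 of the 19874 tested genes were lower and 4331 were higher, and with library size only 3786 were lower and 5050 higher. The list of pocket proteins and E2F factors had 12 genes, of which 1 was lower and 5 were higher, with a median log2 fold change of 0.095. RBL1, the gene of the pocket protein p107, was measured at 18.4, 16.4 and 17.9 CPM in CP+siNC and at 30.9, 31.8 and 31.0 CPM in CP+siNAT10. The libraries of CP+siNAT10 were all higher, opposite to RB1. Its log2 fold change was 0.83 (edgeR adjusted p = 1.4e-12), that of the other pocket protein gene RBL2 was 0.33, that of the repressor E2F4 was 0.42, and that of E2F7 was 0.21. E2F1, the activator that RB1 binds, was at 30.9 ± 1.21 CPM in CP+siNC and 31.7 ± 2.02 CPM in CP+siNAT10, with a 95% interval of -0.070 to 0.15 for its log2 fold change.

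The other INK4 gene, CDKN2D, which encodes p19, was measured at 30.9, 29.5 and 28.9 CPM in CP+siNC and at 16.1, 15.1 and 14.4 CPM in CP+siNAT10. Its groups were far apart. It fell by 0.97 on the log2 scale (edgeR quasi-likelihood test, adjusted p = 1.55e-13). With the CDK-activating kinase it formed a list of 4 genes, of which 3 were lower and MNAT1 did not pass, with a median of -0.20. The others that were lower were CCNH at -0.23 and CDK7 at -0.17, and MNAT1 had a 95% interval of -0.034 to 0.20. CDK7 was measured at 51.5, 51.0 and 52.3 CPM in CP+siNC and at 51.5, 41.5 and 45.05 CPM in CP+siNAT10, so the groups overlapped. For CDK7 the adjusted p in edgeR was 0.0145, with a range of 1.69e-04 to 0.169 over the alternatives. The call was lost with library size only (-0.13 in log2 fold change, edgeR adjusted p = 0.0643), without CP+siNAT10 replicate 2 (-0.098, 0.169) and without CP+siNAT10 replicate 3 (-0.15, 0.0515).

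In the CDK2 arm, which acts after the cyclin D kinases, 7 of 10 genes were lower and 1 was higher, with a median log2 fold change of -0.21. CDKN1A, the gene of the CIP/KIP inhibitor p21, was measured at 71.6, 67.6 and 69.2 CPM in CP+siNC and at 49.97, 51.7 and 54.4 CPM in CP+siNAT10. Its groups did not overlap, and its direction was opposite to that of CDKN1B. Its log2 fold change was -0.41 (edgeR quasi-likelihood test, adjusted p = 4.79e-09). The log2 fold change was -0.43 for CKS1B, a partner of the p27 ligase, -0.26 for CCNA2 and 0.28 for the phosphatase CDC25A. CDK2 was lower by the test, with a log2 fold change of -0.15 and groups that overlapped, and the 95% interval of CCNE1 was -0.066 to 0.11.

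Among 16 E2F targets of S phase, 6 were lower and 4 were higher, with a median log2 fold change of -0.024. RRM2, a subunit of ribonucleotide reductase, was measured at 204, 199 and 205 CPM in CP+siNC and at 129, 119 and 120.0 CPM in CP+siNAT10. MCM5, a subunit of the replicative helicase, was measured at 30.9, 32.0 and 31.9 CPM in CP+siNC and at 43.4, 46.9 and 45.8 CPM in CP+siNAT10. The targets went in both directions. The log2 fold changes were -0.73 for RRM2 (edgeR adjusted p = 1.01e-15), 0.52 for MCM5 (edgeR adjusted p = 5.45e-10), -0.57 for the licensing factor CDT1 and -0.28 for the sliding clamp PCNA.

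Of 18 transcription factors known to act on CCND1, 6 were lower and 4 were higher, with a median log2 fold change of 0.064. The 4 with the smallest p were JUNB at -0.47, STAT5B at 0.42, FOSL1 at 0.27 and YAP1 at -0.35. AP-1 subunits were found on both sides, JUNB lower and FOSL1 higher. Of 10 genes for the turnover of D-type cyclins, 6 were higher and the rest did not pass, with a median of 0.19. FBXO31, a ubiquitin ligase subunit for cyclin D1, was measured at 22.7, 22.8 and 24.0 CPM in CP+siNC and at 34.3, 32.1 and 30.1 CPM in CP+siNAT10, a log2 fold change of 0.47 (edgeR adjusted p = 7.89e-08). The ligase subunits AMBRA1 and DDB1 had log2 fold changes of 0.52 and 0.20. The deubiquitinase USP22, which acts in the opposite sense to the ligases, had a log2 fold change of 0.33. The higher genes of this list include both kinds of enzyme.

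The list of the INK4 locus and its repressors had 10 genes, of which 5 were lower and 3 were higher, with a median log2 fold change of -0.13. The Polycomb genes moved in both directions. The 5 lower genes were CBX8 at -0.30, BMI1 at -0.25, SUZ12 at -0.25, RNF2 at -0.27 and EED at -0.17, while EZH2, the methyltransferase that sets the Polycomb mark, at 0.14 and CBX7 at 0.46 were higher. The adjusted p of CBX7 in edgeR was 0.013, with a range of 0.00786 to 0.0963 over the alternatives, and its call was lost with DESeq2, at a like log2 fold change of 0.46 (DESeq2 adjusted p = 0.0793), and without CP+siNAT10 replicate 2 (0.34 in log2 fold change, edgeR adjusted p = 0.0963). KDM6B, a demethylase that removes the Polycomb mark, was measured at 69.3, 66.8 and 67.8 CPM in CP+siNC and at 100.03, 97.9 and 98.7 CPM in CP+siNAT10. Its libraries were all higher in CP+siNAT10, with a log2 fold change of 0.54 (edgeR adjusted p = 1.4e-12). For MTAP, the gene beside CDKN2A, the 95% interval was -0.17 to 0.063, and for CDKN2B-AS1 it was -0.21 to 0.054.

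**Figure D4:**
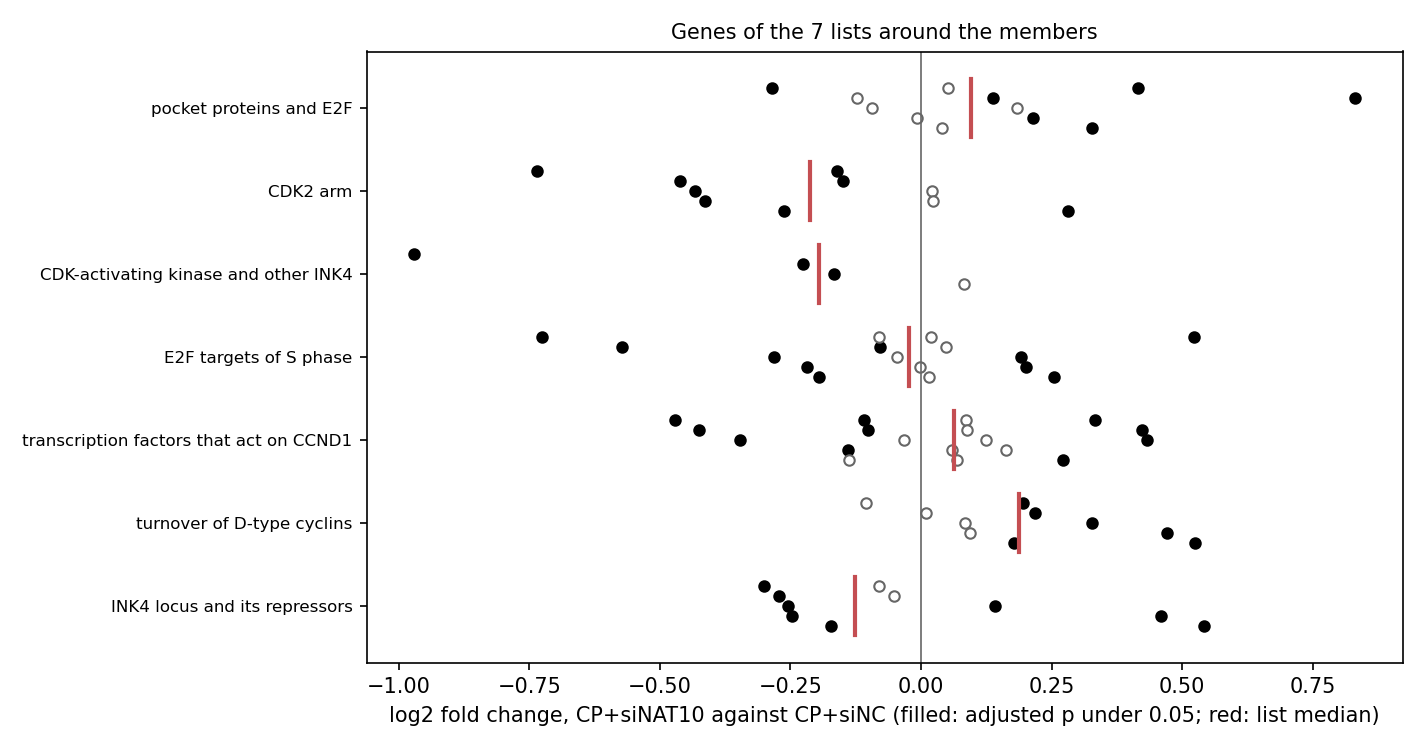
Log2 fold change of each gene of the 7 lists around the members, filled where the adjusted p was under 0.05, with the list median as a red line. The median lies at 0.19 for the turnover of D-type cyclins and at -0.21 for the CDK2 arm.

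The genes whose profile over the 6 libraries was closest to that of CCND1 were looked for among 11219 tested genes that averaged 5 CPM or more, by the root mean square difference of centred log2 CPM. They were PEG10 (0.0266), HPRT1 (0.0367), IFIT2 (0.0438), IFIT3 (0.0441) and IL7R (0.0515). PEG10 was measured at 324, 322 and 319 CPM in CP+siNC and at 123, 122 and 123 CPM in CP+siNAT10, a log2 fold change of -1.39. A likeness over 6 libraries in 2 groups mostly reflects the size of the group difference.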

How the data were processed

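Per the labels, stranded libraries of HK-2 RNA were sequenced. The submitters' processing notes name Trimmomatic 0.36, STAR 2.5.3a, featureCounts of Subread 1.5.1, edgeR 3.12.1 and GRCh38. The deposited values are raw read counts per gene, made by the authors. By the study's methods, the library kit adds molecular identifiers meant to correct for duplicate reads. Whether the counts were made after such merging, and whether counting used strand, is not given in the sources used here. Samples were grouped by their titles. The titles do not state separate cultures, so p-values measure the spread between these samples, which may be technical.

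Here edgeR 4.0.16, which uses limma 3.58.1, was run in R 4.3.3. The filterByExpr step (10 counts at minimum, 15 in total) left 19874 genes, which were scaled by TMM and compared with the quasi-likelihood test without a replicate term. P-values were adjusted by Benjamini-Hochberg over all tested genes. CPM uses TMM-scaled library sizes, and RPKM divides it by the table's gene length. The biological coefficient of variation was 3.00%. The precision of a gene follows its counts, so intervals were wider for CCND2 than for CCND1. The script was tested on simulated data. Promoter letters were counted in Python 3.11.15, with plots by matplotlib 3.10.9.

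The alternatives were RLE and library size scaling, no filter beyond 1 count, 50 counts in 3 libraries, DESeq2 1.42.0, the replicate number as a block, glmTreat, leaving out each library and, for ratios, no division by length. The members and lists were chosen with earlier results of these data known. Genes named are NAT10, the members, up to 4 genes per list with the smallest p or named for their role, the 5 closest profiles to CCND1 and markers of cell types. EZH2, CBX7, RNF2, EED, LTO1 and ENSG00000285901, and of the markers CD68, COL1A1 and PTPRC, were named after their values were seen.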

Additional observations from a re-analysis of the deposited data

How the results depend on the processing

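The 4 lower and 2 higher members kept their direction and their side of the adjusted p threshold under the 12 alternatives run for each. CCND1 lay between -1.43 and -1.38 in log2 fold change and CCND2 between -1.21 and -0.95. The glmTreat test was used only for the number of genes past 2-fold and not for single members. CDK6 lay between -0.17 and -0.064 when single libraries were left out. CDKN2C was at -0.095 where 50 counts in 3 libraries were required, where fewer genes were tested. CDKN2A lay between -0.010 and 0.060 when single libraries were left out. The sign of CDKN2B turned, at -0.0013 with RLE scaling, -0.0028 with 50 counts required and -0.0014 with DESeq2, and it lay between -0.033 and 0.044 when single libraries were left out. E2F1 lay between -0.0029 and 0.084 and CCNE1 between -0.0029 and 0.050 in the same way. The cause was not tested.

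The number of genes past 2-fold was 464, against 711 without the filter, 201 with 50 counts required, where fewer low genes were tested, and 56 with glmTreat, which tests against the limit itself. The drop of the CCND1 share was -7.09 percentage points by RPKM and -8.19 by CPM, as CPM is not divided by length. The sum of D-type cyclin RPKM changed by -38.0, and by -36.7 with library size only, added after seeing the data. For 47 named genes outside the members, 551 of 563 values had the same direction and side; the others were of CDK7, CBX7, PTPRC, E2F1 and CCNE1.

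Whether the replicate numbers pair the samples is not known. Same-numbered libraries correlated at -0.044, 0.0089 and -0.14 in their deviations, and differently numbered ones between -0.11 and 0.14. With 3 libraries per group, these values cannot decide it. With the replicate block 4318 genes were lower and 4208 higher, against 4440 and 4331, and CDKN2B was at -0.00024. Counts under 100 per library, as for CCND2 in CP+siNAT10, limit the precision.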
